A study of Mus musculus with 14 samples.

Results

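Cassette exons are exons that a transcript either includes or skips during splicing. The exons described here were the cassette exons of mouse spinal cord whose length is divisible by 3 and whose inclusion was intermediate. They were chosen by measured values of the 2 RNA-seq libraries of whole spinal cord (WSC), namely a length of 31 to 250 nt, 10 or more reads on the junctions per library, and a mean inclusion from 0.1 to 0.9 over both. To compute inclusion, the reads on the 2 junctions that join the exon to its neighbours were averaged, and this average was taken as a share of itself and the skipping reads together. Of 13189 cassette exon events in the files, 9396 had enough reads and 1318 met every criterion. Those 1318 events lay at 1248 exon positions in 969 genes, which was 19.7% of the 4912 genes with a covered event.

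The RNA-seq libraries came from the spinal cord of 1 male and 1 female Tg(SOD1)2Gur/J mouse at 12 weeks, on a B6/SJL background, so that both carried the wild-type SOD1 transgene. NOVA binding was measured by HITS-CLIP, in which RNA crosslinked to a protein is purified with an antibody and sequenced, in 3-month-old C57BL/6 mice. The 4 WSC CLIP libraries came from wild-type cords and used an anti-NOVA serum. The 8 motoneuron (MN) CLIP libraries used anti-GFP antibodies on pooled cords of hemizygous Chat:GFP-Nova mice, 4 libraries of line #6 and 4 of line #17. In those mice a bacterial artificial chromosome with the Chat gene drives GFP-tagged NOVA2 in cholinergic cells, beside the NOVA the cells make themselves. Cell type, antibody, tagged protein, pooling of cords and depth differed together between MN and WSC CLIP and cannot be told apart. RNA-seq and CLIP came from different mice, strains and genotypes.

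Skipping an exon whose length is a multiple of 3 leaves the downstream reading frame intact, so that both isoforms can be translated in full. Skipping any other coding exon shifts the frame and often exposes the transcript to nonsense-mediated decay. Neurons use many frame-preserving cassette exons to insert short peptides into synaptic, cytoskeletal and membrane proteins. NOVA1 and NOVA2 are neuronal proteins that bind clusters of the tetramer YCAY. From the intron downstream of an exon they generally favour its inclusion, and from the exon or the intron upstream they generally favour skipping.

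Examples of such exons are given first, with the exon in capitals and 30 nt of intron on either side in lower case, 5′ to 3′ on the transcript strand of mm9. Aplp2, Grin1, Cltb, Ndrg2 and Pcbp2 are shown because they had the most junction reads in their gene lists. Dlg1, Slc24a2 and Enpp2 were chosen after their values were seen, because they differed between the libraries.
Aplp2, 36 nt, chr9:30963745-30963840, minus strand: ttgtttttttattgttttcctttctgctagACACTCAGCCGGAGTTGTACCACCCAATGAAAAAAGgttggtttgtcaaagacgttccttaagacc
Grin1, 63 nt, chr2:25166833-25166955, minus strand: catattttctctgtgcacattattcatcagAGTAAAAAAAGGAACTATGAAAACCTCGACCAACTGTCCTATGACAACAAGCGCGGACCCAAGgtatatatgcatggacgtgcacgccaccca
Cltb, 54 nt, chr13:54698357-54698470, minus strand: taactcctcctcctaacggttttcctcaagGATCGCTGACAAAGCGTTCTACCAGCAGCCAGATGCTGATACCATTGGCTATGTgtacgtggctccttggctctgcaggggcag
Ndrg2, 42 nt, chr14:52530731-52530832, minus strand: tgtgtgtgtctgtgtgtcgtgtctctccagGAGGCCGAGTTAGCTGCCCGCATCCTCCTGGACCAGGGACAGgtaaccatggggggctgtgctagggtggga
Pcbp2, 39 nt, chr15:102319177-102319275, plus strand: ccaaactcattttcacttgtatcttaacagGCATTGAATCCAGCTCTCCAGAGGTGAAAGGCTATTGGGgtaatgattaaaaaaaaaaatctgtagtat
Dlg1, 36 nt, chr16:31854709-31854804, plus strand: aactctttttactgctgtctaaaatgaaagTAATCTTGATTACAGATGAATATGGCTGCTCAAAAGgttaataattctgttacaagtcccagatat
Slc24a2, 51 nt, chr4:86695758-86695868, minus strand: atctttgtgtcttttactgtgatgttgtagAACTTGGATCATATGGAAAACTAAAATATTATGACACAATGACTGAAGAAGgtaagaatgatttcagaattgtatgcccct
Enpp2, 75 nt, chr15:54682873-54683007, minus strand: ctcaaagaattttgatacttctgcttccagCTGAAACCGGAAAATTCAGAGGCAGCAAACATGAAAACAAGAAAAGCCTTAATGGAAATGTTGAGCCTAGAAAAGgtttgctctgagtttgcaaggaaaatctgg

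The stretches of 100 nt that held the most WSC CLIP tags around 6 exons follow, with every YCAY (searched as CCAC or CCAT and also as TCAC or TCAT, on the transcript strand, overlaps allowed) in capitals. Wnk1 and Sept3 are shown because they had the most WSC tags of all these exons, and Syt7, Magi1, Mbnl2 and Gsk3b were chosen after their MN and WSC tags were seen. The stretches hold 3 or 4 YCAY each. Those of Magi1 and Mbnl2 have their centre inside the exon, those of Sept3 and Syt7 lie in the downstream intron, that of Wnk1 lies upstream of the exon, inside a longer overlapping exon of another event, and that of Gsk3b spans the upstream edge of the exon.
Wnk1, chr6:119903958-119904057, minus strand: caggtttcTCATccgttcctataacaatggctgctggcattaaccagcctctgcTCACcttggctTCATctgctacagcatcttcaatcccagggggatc
Sept3, chr15:82121949-82122048, plus strand: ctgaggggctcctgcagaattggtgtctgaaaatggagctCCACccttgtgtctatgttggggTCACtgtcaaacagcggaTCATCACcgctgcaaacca
Syt7, chr19:10497665-10497764, plus strand: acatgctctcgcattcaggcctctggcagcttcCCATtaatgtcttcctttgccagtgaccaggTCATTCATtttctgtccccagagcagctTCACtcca
Magi1, chr6:93644020-93644119, minus strand: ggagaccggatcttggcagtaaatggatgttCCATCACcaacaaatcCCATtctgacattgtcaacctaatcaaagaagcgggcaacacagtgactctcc
Mbnl2, chr14:120794896-120794995, plus strand: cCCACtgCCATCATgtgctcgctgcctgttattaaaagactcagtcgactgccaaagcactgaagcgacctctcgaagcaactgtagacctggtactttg
Gsk3b, chr16:38217130-38217229, plus strand: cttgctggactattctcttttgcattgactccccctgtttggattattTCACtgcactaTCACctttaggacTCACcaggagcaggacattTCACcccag

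The RNA-seq libraries held 72006019 (male) and 65625173 (female) reads on genes, of which 269692 and 232731 lay on the junctions of the 1318 events, with a median of 82 and 71 per event. Defining markers of neurons and glia were present. Snap25 stood at 2029 and 2084 RPKM (reads per kilobase of exon, scaled to the library's reads on genes), the oligodendrocyte marker Mbp at 2151 and 2114, Chat at 9.2 and 10.4, and Alb at 0 in both. MN CLIP libraries held 65961 to 871804 tags and WSC CLIP libraries 2213104 to 6095995. Tags are given as CPM, tags per 1000000 tags of the library, and in an MN library 1 tag was worth 1.15 to 15.2 CPM.

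The 1318 exons were spread over the whole intermediate range. Mean inclusion was 0.1 to 0.3 in 294 events, 0.3 to 0.5 in 250, 0.5 to 0.7 in 298 and 0.7 to 0.9 in 476, with a median of 0.573. The median length was 90 nt, against 104 nt for the 937 frame-shifting exons of the same length range and inclusion and 108 nt for the 1881 frame-preserving exons that were rarely skipped (mean inclusion above 0.9). Just inside the lower bound lay exons of Pcdh19 and Nxt1 (0.102 each) and just outside it exons of Rsrc2 (0.0994) and Ppp1r9a (0.0988). Just inside the upper bound lay exons of Trip10 and Adam22 (0.9 each) and just outside it exons of Dnajc4 (0.9001) and Tcf25 (0.901). Most genes had 1 such event (746), while 153 had 2, 43 had 3 and 27 had 4 or more. Adam22, a receptor of the secreted LGI proteins at synapses, had 10, and the kinesin Kif21a had 8.

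The share of exons with a length divisible by 3 differed with inclusion over all covered exons of 31 to 250 nt. Of the 2255 with a mean inclusion of 0.1 to 0.9, 58.4% (95% Wilson interval 56.4 to 60.5) had a length divisible by 3. The share was 40.2% (37.8 to 42.6) of the 1603 below 0.1 and 40.4% (39.0 to 41.9) of the 4651 above 0.9. Within the intermediate range it was highest between 0.4 and 0.5, where 135 of 185 exons (73.0%, 66.2 to 78.9) preserved the frame, and it was lower at both ends of the range, at 48.0% between 0.1 and 0.2 and 51.1% between 0.8 and 0.9. Frame and inclusion were both used to choose the exons, so this is a description. Several events can share a gene, and the intervals cover counting error only.

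**Figure D1:**
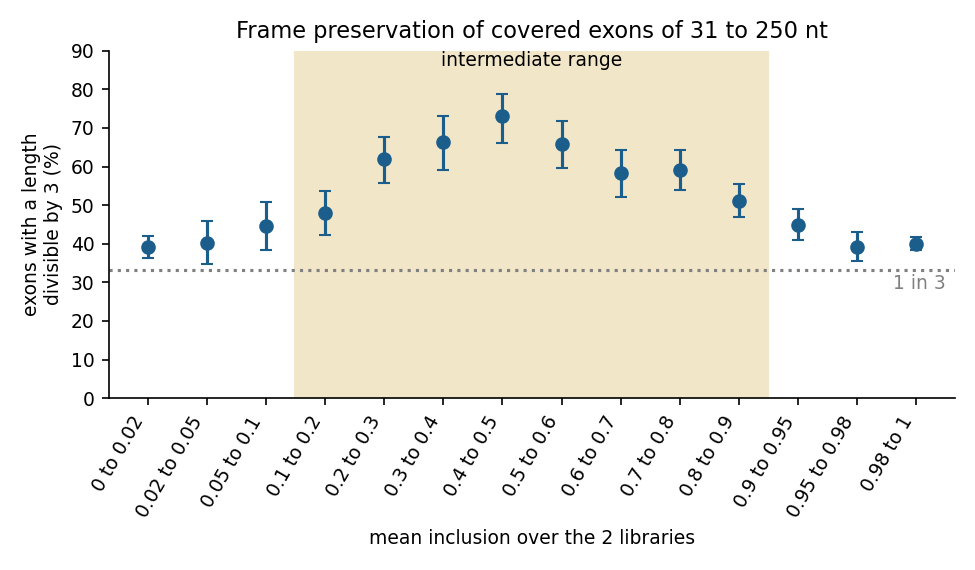
Share of covered cassette exons of 31 to 250 nt whose length is divisible by 3 (y axis, percent, bars are 95% Wilson intervals) by mean inclusion over the 2 RNA-seq libraries (x axis, 14 bins of unequal width). The shaded bins from 0.1 to 0.9 hold the 1318 exons, the share peaks at 73.0% between 0.4 and 0.5, and the dotted line marks 1 in 3.

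Most of the exons were annotated parts of proteins. Of the 1318 events, 1313 could be placed on mm9, 1187 had both exon ends in the GENCODE annotation, and 991 (75.2%) were identical to an annotated coding segment. The share was 83.3% among frame-preserving exons that were rarely skipped. All 1243 placed positions had AG before the exon and GT after it, as did all 8948 placed positions of covered exons. The downstream intron had a median length of 2250 nt, against 1782 nt over all covered exons, and the upstream intron 1941 nt against 1834 nt. Genes with these exons had a median expression of 12.8 RPKM, and all genes with covered exons 13.1 RPKM.

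Genes of the skeleton, the synapse and membrane traffic held many of the exons. Such an exon was found in 36 of 67 covered genes of a list for the microtubule, actin and membrane skeleton, in 40 of 67 genes of a list for synapse and cell adhesion, in 34 of 63 for endocytosis and membrane traffic, in 42 of 84 for kinases, phosphatases and GTPase regulators, and in 24 of 33 genes known for NOVA-regulated exons. It was found in 19 of 54 genes of ion channels, pumps and receptors, in 24 of 78 of RNA-binding proteins and splicing factors, and in 11 of 26 myelin and glial genes. The share over all covered genes was 19.7%. A gene with more covered events has more chances to hold such an exon. By covered event, the share was 33.5% for the skeleton, 34.7% for the synapse, 29.3% for traffic and 31.4% for kinases. It was 39.3% for genes known for NOVA regulation, 28.2% for channels, 35.6% for myelin and glia and 15.4% for RNA-binding proteins. Among all covered events it was 14.0%. The lists were chosen with earlier results of these data known and favour well-studied genes, and in whole tissue the share of cells of a type and the RNA per cell cannot be told apart.

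Of the skeleton proteins, Epb4.1l3 (4.1B, which ties membrane proteins to spectrin and actin) included an exon of 117 nt at 0.888 in both libraries. Spna2, the alpha chain of brain spectrin, included 60 nt at 0.825 and 0.779, and Ank2, which anchors membrane proteins to spectrin, 183 nt at 0.700 and 0.727. All 3 exons were mostly included, with a gap between libraries of at most 0.0458. The 2 inclusion junctions of Ank2 had unequal reads, 250 and 567 in the male and 242 and 419 in the female library. Kif21a, a kinesin that acts on microtubule ends, included 39 nt in about equal parts, at 0.539 and 0.496.

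Of the synaptic genes, Aplp2, a relative of the amyloid precursor protein, included its 36 nt at 0.791 (95% Wilson interval 0.773 to 0.809, 3494 junction reads) and 0.794 (0.775 to 0.812, 3198 reads). It lay in the upper part of the range in both libraries. Dlg1, the scaffold SAP97, was mostly skipped and differed between the libraries, as described further on.

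Of the channels and receptors, Grin1, the obligatory subunit of NMDA receptors, included 63 nt, the N1 cassette of its extracellular part, at 0.890 and 0.899. Adcyap1r1, the PACAP receptor, included 84 nt at 0.507 and 0.535. These are near the upper bound and near the middle of the range. Slc24a2, a potassium-dependent sodium and calcium exchanger, included 51 nt at 0.188 and 0.338.

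The clathrin light chains Cltb and Clta each had an exon of 54 nt, included at 0.727 and 0.667 in Cltb and at 0.674 and 0.728 in Clta. The membrane-bending protein Bin1 included 93 nt at 0.596 and 0.587. The male library was higher for Cltb and the female for Clta, and only the former was called between libraries. Among kinase and signalling genes, Ndrg2 included 42 nt at 0.3 and 0.238, Ndrg3 39 nt at 0.415 and 0.406, and the calcium-dependent kinase Camk2g 69 nt at 0.235 and 0.203. All of these kinase and signalling exons were skipped more often than included. The 2 inclusion junctions of Camk2g had unequal reads, 70 and 264 in the male and 82 and 141 in the female library, so its averaged inclusion is less certain.

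The RNA-binding proteins Pcbp2 (39 nt, 0.862 and 0.877), Hnrnpd (147 nt, 0.671 and 0.641) and Brunol4 (84 nt, 0.854 and 0.834) were mostly included and none was called between the libraries. Of the myelin genes, Mbp, a main protein of compact myelin, skipped its exon of 123 nt in most transcripts (inclusion 0.164 and 0.195 over 35015 and 29504 junction reads). Mag, an adhesion protein of the myelin sheath, included 45 nt at 0.655 and 0.704. Inclusion of that exon yields the short form of MAG, and it did not match an annotated coding segment, although its length is divisible by 3. The exon of Epb4.1l3 named above did not match an annotated coding segment either.

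**Figure D2:**
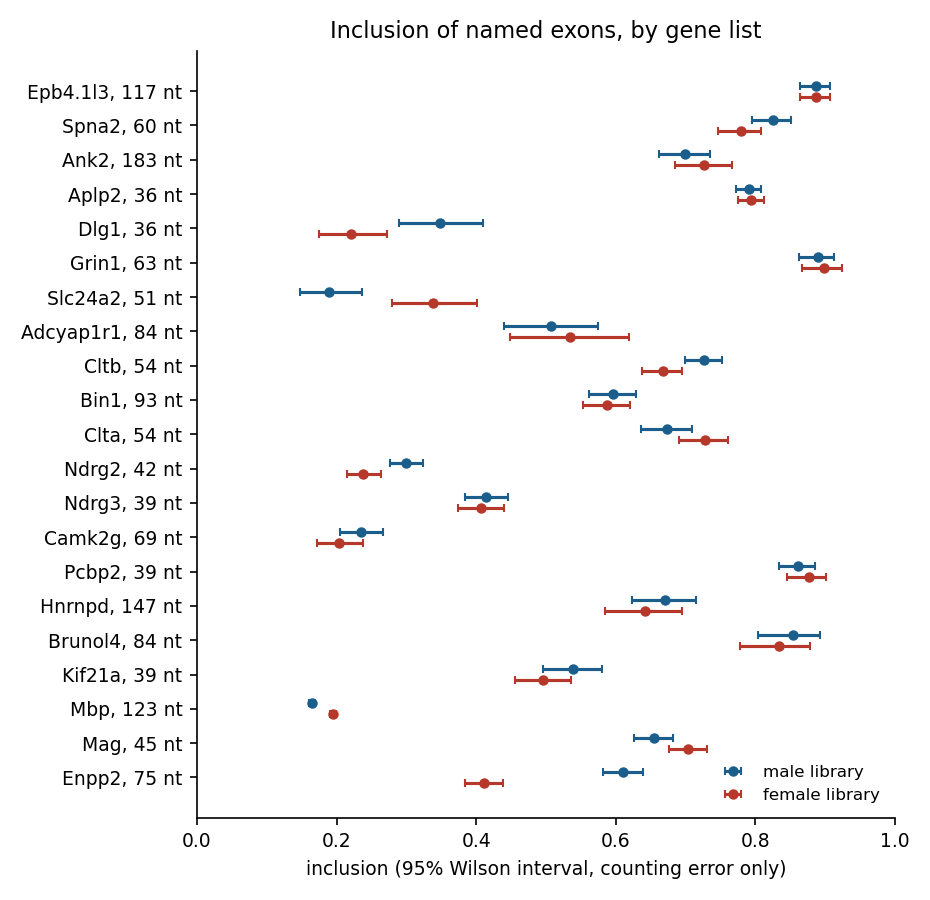
Inclusion (x axis, no unit, 0 to 1) of the exons with the most junction reads of each gene list (y axis, gene and exon length), with the male library in blue and the female in red and bars giving the 95% Wilson interval. The intervals of the 2 libraries overlap for Aplp2, Grin1 and Bin1, among others, and are apart for Enpp2, Slc24a2, Mbp, Dlg1, Ndrg2 and Cltb.

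Inclusion in the 2 libraries differed by a median of 0.0898 over the 1318 events, an SD (n = 2) of 0.0635, and by 0.0568 in the 465 events with at least 100 reads in each library. Of the 1318, 136 were called at an adjusted p up to 0.1 by Fisher's exact test on inclusion reads (junctions and exon body) and skipping reads, adjusted over all 9396 covered events. Of these, inclusion was higher in the male for 79 and higher in the female for 57. That was 10.3% of the exons, against 4.26% of all covered events and 9.39% of the frame-shifting exons of the same range (88 of 937). The range of inclusion was part of the choice of exons, and nothing is read from the excess over all covered events. With 1 library of each sex, the test compares 2 libraries and not the sexes, and it does not cover the spread between mice. On junction reads alone 50 were called, against 1.3% of all covered events.

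The called exon with the most depth was that of Mbp, where the female library was higher by 0.0306 (adjusted p = 1.41e-45, Fisher's exact test). Enpp2, the secreted phospholipase autotaxin, which oligodendrocytes also make, had the larger gap. The male library included its exon of 75 nt at 0.610 (0.581 to 0.639), the female one at 0.411 (0.384 to 0.438) (adjusted p = 3.3e-25, Fisher's exact test). Its 2 inclusion junctions had unequal reads, 874 and 464 in the male and 699 and 327 in the female library. Of 21 exons in the myelin and glial list 6 were called, of 76 in the synapse list 15, of 80 in the skeleton list 8, of 29 in the channel list 3, of 48 in the traffic list 5, of 65 in the kinase list 7, of 55 in the NOVA list 6, and of 32 in the RNA-binding list 1. These were 28.6% for myelin and glia, 19.7% for the synapse, 3.12% for RNA-binding proteins and 10 to 10.9% for the other lists, against 10.3% of all these exons and 4.26% of all covered events. The counts are of events, and some events share an exon position, as the 76 of the synapse list lay at 66 placed positions. The part of read depth in these shares was not tested. Slc24a2 was higher in the female library by 0.149 (adjusted p = 4.77e-04, Fisher's exact test) and Dlg1 in the male by 0.128 (adjusted p = 0.00331), of which only the former was also called on junction reads alone (adjusted p = 0.0224 and 0.113). Cltb and Ndrg2 were higher in the male by 0.0594 and 0.0618 (adjusted p = 0.0426 and 4.95e-04, Fisher's exact test), and on junction reads alone Cltb was not called (adjusted p = 0.171).

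The largest gaps among called exons belonged to rarely sequenced events. The overlapping exons of 99 and 198 nt of Il15ra, the interleukin 15 receptor alpha chain, each had a computed inclusion of 1.0 in the male, and of 0.1 and 0.333 in the female library. Both end at the same base and share the reads of the second junction, 10 in the male and 2 in the female library. On the first junction the exon of 99 nt had 3 and 0 reads and that of 198 nt 0 and 7. They had 10 to 18 junction reads per library and gene levels of 1.29 and 1.39 RPKM. Vangl1, a planar cell polarity protein, was included at 0.833 and 0.216, over 22 and 31 reads. Cyb561 and Alkbh1 were higher in the female library by 0.578 and 0.550, each with at most 31 reads per library. No read lay on the first inclusion junction of Cyb561 in either library. On junction reads alone neither was called (adjusted p = 0.144 and 0.273, Fisher's exact test), nor was the 198 nt exon of Il15ra (adjusted p = 0.484).

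**Figure D3:**
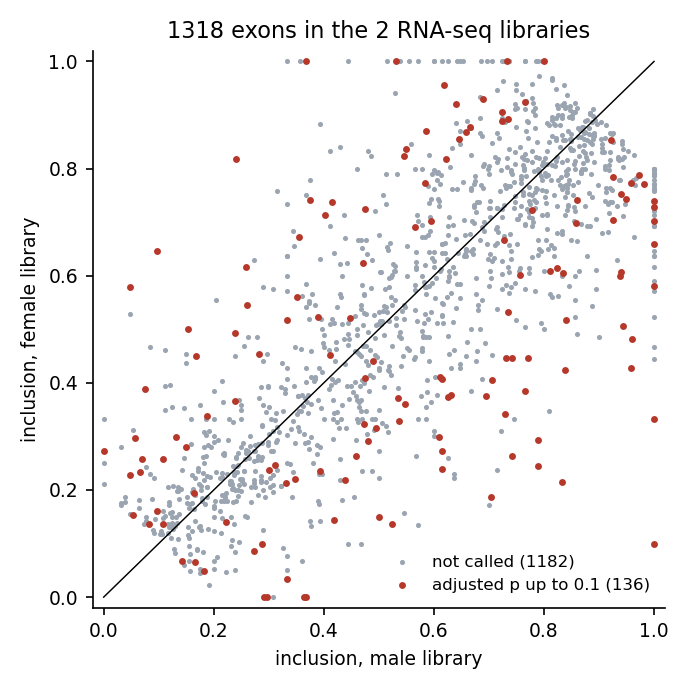
Inclusion of the 1318 exons in the male (x axis) and female (y axis) library, both without unit, with the 136 called by Fisher's exact test in red, the others in grey, and the line of equal inclusion. Called exons lie on both sides of the line, 79 below it and 57 above.

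NOVA tags were frequent at these exons in whole spinal cord. A region was the exon and up to 300 nt of intron on either side. Of the 1243 regions, 442 (35.6%, 95% Wilson interval 32.9 to 38.3) held at least 10 tags over the 4 WSC libraries, and the median was 6 tags. Among all 8948 covered regions 23.6% did, with a median of 3. Frame-shifting exons of the same range stood at 23.5%, and rarely skipped and mostly skipped frame-preserving exons at 22.2% and 13.9%. These exons made up 19.3 to 20.5% of tags at covered regions in each WSC library and 23.7 to 32.7% in each MN library. CLIP values were not used to choose the exons, and no test over exons was made. WSC libraries had 1490 to 1515 CPM at these exons and MN libraries 1669 to 2370, with a median of 1936.

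The difference from rarely skipped exons was larger in the introns than in the exon. In WSC CLIP the 300 nt upstream and downstream of the exons averaged 26.7 and 27.6 CPM per 1000 exons in bins of 20 nt, against 6.66 and 8.17 around rarely skipped frame-preserving exons. The exon itself, in 5 bins of equal share of its length, averaged 78.6 against 84.7. These exon bins were not of equal width in nt, as the median exon length was 90 nt here and 108 nt for rarely skipped exons. The lower WSC average per exon bin therefore does not show fewer tags per nt of exon. In MN CLIP the introns averaged 43.6 and 44.6 against 13.1 and 16, and the exon 48.7 against 39.0. These averages pool the tags of all regions, so regions with many tags weigh more. The intron bins can also hold exon sequence of other events, as at Wnk1. Between 30.9 and 35.2% of WSC tags at the regions lay in the exon, and between 13.2 and 22.4% of MN tags, with no overlap of the groups. The lower exon level in MN CLIP was also seen at rarely skipped exons. Mean tag length was 45.3 to 48.1 nt in WSC libraries and 29.8 to 53.9 nt in MN libraries, and its part in the exon share was not tested.

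**Figure D4:**
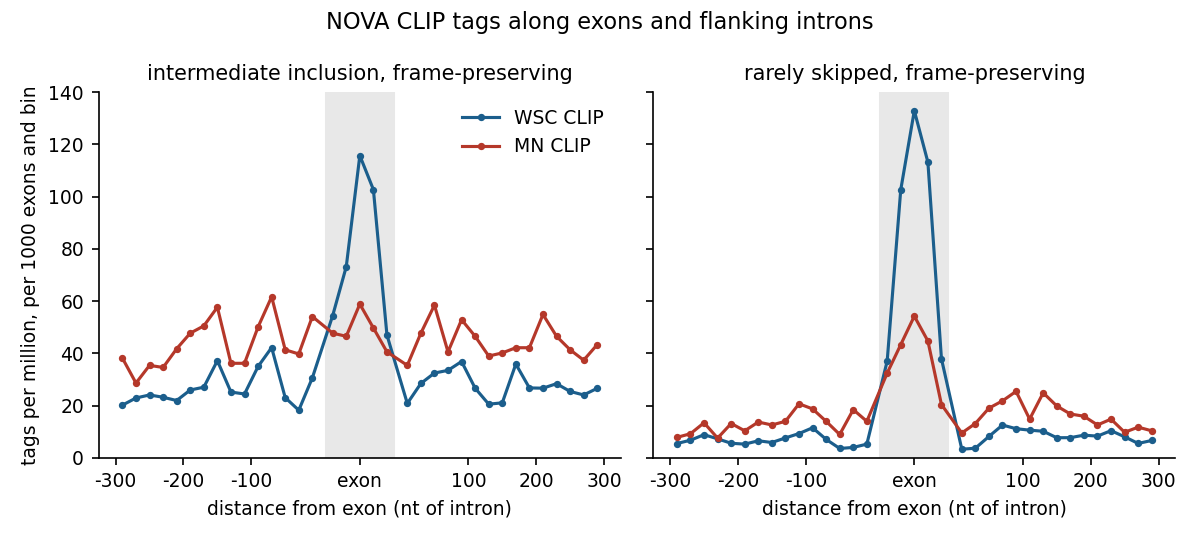
NOVA tags (y axis, CPM per 1000 exons and bin) along the 300 nt of intron on either side of the exon in bins of 20 nt and along the exon in 5 bins (x axis, grey band), pooled over 4 WSC libraries (blue) and 8 MN libraries (red). Around the frame-preserving intermediate exons (left) both profiles stay above 18 in every intron bin, while around rarely skipped ones (right) WSC intron bins stay under 13.

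The sequence around the exons held slightly more NOVA motifs than other covered exons. YCAY stood at a median of 1.68 per 100 nt of region, against 1.58 over all covered regions and 1.58 for both frame-shifting intermediate and rarely skipped frame-preserving exons. Of 1173 exons with 200 nt of downstream intron in the region, 62.9% had 3 or more YCAY there, against 57.9% of all such regions. TGCATG, the element of RBFOX splicing factors, searched on the transcript strand only, was in the same 200 nt of 12.4%, against 10.5%. In the 200 nt of intron upstream, 62.6% had 3 or more YCAY, against 61.5% of all regions with that much upstream intron. TGCATG was there in 10.1%, against 7.93%. The quartiles of YCAY density, 1.27 to 2.08 here and 1.21 to 1.97 over all regions, overlapped almost entirely.

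The exons with the most WSC tags were those of Wnk1, a kinase that controls chloride cotransporters, with 850 tags, Sept3, a neuronal septin, with 790, Adam22 with 632 and Whsc1, a histone methyltransferase, with 566. The Wnk1 exon of 132 nt was included at 0.498 and 0.511, and 405 of its tags fell into the 100 nt printed above, upstream of the exon. In Sept3, included at 0.192 and 0.310, 295 tags fell into the printed stretch downstream. The WSC libraries had 54.2, 54.1, 42.5 and 43.4 CPM at Wnk1, and 49.2, 40.2, 50.6 and 41.6 at Sept3.

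MN and WSC CLIP were compared at the exons to ask where NOVA binding in motoneurons departs from that of the whole cord. In the test set out for tag counts (edgeR quasi-likelihood test, default filter, TMM), 27 of all covered regions passed the filter, 18 of them (66.7%) were called at an adjusted p up to 0.1, and 6 were exons described here. Mbnl2, Rims1 and Camta1 were higher in MN CLIP, and Wnk1, Sept3 and Adam22 were not called (adjusted p = 0.251, 0.505 and 0.96, edgeR). Direction depended on the scaling. With the total of tags in place of TMM, Wnk1, Sept3 and Adam22 were called lower and the same 3 higher. In the test of the share of a gene's tags that lay at the exon (the same filter, 21 of 27 regions called, 77.8%), Mbnl2, Rims1 and Camta1 were higher and Wnk1 (adjusted p = 0.0425) and Adam22 (adjusted p = 0.0986, edgeR) lower. Without line 6 replicate 3, without line 17 replicate 4, or without any 1 WSC library, 9 to 12 regions passed the filter. Of the exons described here, 0 or 1 was among them and none was called. The other exons were not tested in these settings, so the lack of calls says nothing about them.

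Mbnl2, a muscleblind splicing regulator, had an exon of 54 nt that was mostly skipped in whole cord (inclusion 0.135 and 0.109). The WSC libraries had 7.07, 5.74, 10.1 and 8.13 CPM there and the MN libraries 15.2 to 56.3, with a median of 31.5. All 8 MN libraries lay above all 4 WSC libraries, although in some MN libraries 1 tag was worth more than 10.1 CPM. The difference was 2.90 ± 0.31 (log2, SE, adjusted p = 3.71e-11, edgeR) in tag counts with TMM, 2.04 ± 0.34 with library totals in place of TMM, and 1.44 ± 0.34 in the share of the gene's tags (adjusted p = 9.2e-05).

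Camta1, a calmodulin-binding transcription activator, included 84 nt at 0.178 and 0.186. Its WSC libraries had 9.13, 13.1, 14.2 and 14.5 CPM and its MN libraries 9.88 to 65.9, with a median of 29.3. Of the MN libraries 7 lay above every WSC library. The share of the gene's tags differed by 1.51 ± 0.34 (log2, SE, adjusted p = 5.11e-05, edgeR). Rims1, a scaffold of the presynaptic active zone, included 72 nt at 0.258 and 0.269. It had 13.8, 15.7, 16.5 and 18.5 CPM in WSC libraries and 0 to 100.1 in MN libraries, with a median of 33.6, again 7 of them above every WSC library. Its share differed by 0.76 ± 0.28 (log2, SE, adjusted p = 0.0118, edgeR). In the broader test described next its adjusted p was 0.0219, and 0.341 without line 17 replicate 2, the library at 100.1.

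The filter removed nearly all exons. Broader fits without it were added after the calls of 4 filters had been seen, and after simulated counts had given false calls for the planned unfiltered fits. In the broader test within genes (a term for each library, 5355 regions, 929 of them these exons), 68 exons were higher in MN CLIP and 13 lower, in 73 genes. That was 7.32% and 1.40% of the exons tested, against 5.04% and 1.98% of all regions. In the broader test of tag counts on library totals (7348 regions, 1091 of these exons), 73 were higher and 22 lower, or 6.69% and 2.02%, against 4.21% and 2.05%. On library totals the median difference over all regions was -0.79 (log2) and over these exons 0.07, so the split into higher and lower counts depends on the scaling. The tests shared 59 exons, 50 higher and 9 lower, which were 72.8% of the calls of the former and 62.1% of the latter. These counts rest on few tags, since 12 of the 68 higher exons had fewer than 5 MN tags in all, and without line 17 replicate 4, the deepest MN library, 42 exons were called within genes in place of 81. By the read names, replicates 3 and 4 of both lines were sequenced on the flow cell of the WSC libraries. With these MN libraries alone 51 exons were called within genes, 48 of them among the 81, and Rims1 was not (adjusted p = 0.514, edgeR).

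Genes of the skeleton had 12 of their 66 tested exons higher and 3 lower in the test within genes, or 18.2% and 4.55%, against 5.04% and 1.98% of all regions and 7.32% and 1.40% of these exons. The lists were chosen with earlier results of these data known, so the shares by list are a description. At least 10 WSC tags lay in 63.8% of the skeleton regions, against 35.6% of all these exons. The part of tag depth in the calls was not tested. Of 63 synaptic exons 4 were higher and 3 lower, of 56 exons of kinases and GTPase regulators 8 and 3, of 38 exons of membrane traffic 3 and 2, of 27 exons of channels 1 was higher, and of 25 exons of RNA-binding proteins 4 were. The higher shares were 6.35% for the synapse, 14.3% for kinases, 7.89% for traffic, 3.70% for channels and 16% for RNA-binding proteins. Of 46 exons in genes known for NOVA regulation 5 were higher (10.9%) and 3 lower. In tag counts on library totals, where 4.21% of all regions were higher, 12 of 66 skeleton exons were higher (18.2%), 5 of 65 synaptic ones (7.69%), 4 of 56 of the kinases (7.14%), 4 of 44 of membrane traffic (9.09%), 2 of 27 of the channels (7.41%), 2 of 30 of RNA-binding proteins (6.67%) and 7 of 46 in genes known for NOVA regulation (15.2%). Of 17 myelin and glial exons 0 were called by edgeR within genes and 1 had an unadjusted p under 0.05, and in tag counts these numbers were 0 and 1 of 18. Within genes the median difference was 0.21 (log2) over the exons tested and -0.04 over all regions. By list it was 0.68 for the synapse, 0.60 for channels and 0.56 for the skeleton. It was 0.39 for genes known for NOVA regulation, 0.35 for RNA-binding proteins, 0.16 for kinases, -0.35 for traffic and -0.91 for myelin and glia. The sign of the median over the exons tested depended on the setting. This median was -0.48 with line 6 alone (-0.98 over all regions), -0.05 with line 17 alone (-0.68) and 0.38 with 500 nt of intron (0.13). The exons tested had a median of 2 MN tags, and 260 of the 929 had none. The medians by list are therefore not read as a rise in MN CLIP.

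Clasp1, which stabilizes the growing ends of microtubules, included 63 nt at 0.289 and 0.2. It had 5.89, 4.92, 5.13 and 3.61 CPM in WSC libraries, and 9.18 to 75.1 with a median of 22.0 in MN libraries. All 8 MN libraries lay above all WSC libraries, and the share of the gene's tags differed by 2.16 ± 0.30 (log2, SE, adjusted p = 6.21e-10, edgeR). Add3, an adducin that caps actin and binds spectrin, included 96 nt at 0.411 and 0.510. Its WSC libraries had 2.06, 1.8, 2.48 and 2.71 CPM and its MN libraries 0 to 42.7 with a median of 14.5, 6 of 8 above and 2 at 0. Spna2 had 5.89, 14.1, 12.7 and 6.33 CPM in WSC libraries and 0 to 56.3 with a median of 25.5 in MN libraries, 7 of 8 above. The share of tags was higher in MN CLIP for both (2.30 ± 0.39 and 1.21 ± 0.26 on the log2 scale with SE, adjusted p = 8.3e-07 and 2.47e-04, edgeR). In an MN library 1 tag was worth 1.15 to 15.2 CPM. In most of these libraries that was more than any WSC value at Clasp1 or Add3. The counts of MN libraries above the WSC libraries thus depend on depth.

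In the broader test within genes, Epb4.1l3 was the gene with called exons in opposite directions. Its exon of 75 nt (inclusion 0.447 and 0.522) had 2.65, 4.43, 4.78 and 5.42 CPM in WSC libraries and 10.7 to 32.9 with a median of 20.8 in MN libraries. All MN libraries lay above all WSC libraries, by 2.21 ± 0.32 in the share of the gene's tags (log2, SE, adjusted p = 1.9e-09, edgeR). In most MN libraries 1 tag was worth more CPM than any of these WSC values. The exon of 117 nt had 17.1, 14.6, 15.6 and 18.5 CPM in WSC libraries and 0 to 25 with a median of 7.85 in MN libraries, 7 of 8 below. Its share fell by 1.12 ± 0.35 (log2, SE, adjusted p = 0.0324, edgeR), a call lost without line 6 replicate 3 (0.209) or line 17 replicate 4 (0.301). The WSC tags of the longer exon lay in the exon itself (99.3%) and those of the shorter one in its introns (2.67% in the exon).

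Syt7, a synaptotagmin of calcium-triggered exocytosis, had the smallest adjusted p within genes (1.07e-11, edgeR, 2.35 ± 0.31 log2 with SE). The tags of the exon region overlapped between the groups, with 16.8, 16.9, 14.5 and 26.2 CPM in WSC libraries and 8.81 to 37.5 with a median of 21.7 in MN libraries, and the count fit gave 0.21 ± 0.29 (adjusted p = 0.717, edgeR). The exon region held 18.4% of the gene's tags in MN CLIP and 4.09% in WSC CLIP. Hnrpdl, an hnRNP protein, included 105 nt at 0.181 and 0.0837. It had 21 MN tags, 8 in line 6 replicate 3, 1 in line 6 replicate 4, 12 in line 17 replicate 4 and none in the other MN libraries. The share of tags was higher in MN CLIP by 3.74 ± 0.54 (log2, SE, adjusted p = 1.57e-09, edgeR), and without line 17 replicate 4 the exon was no longer tested. Mbnl1, chosen after its values were seen as the paralog of Mbnl2, had exons of 54 nt and 36 nt with differences of 1.73 ± 0.59 and 1.99 ± 0.69 (log2, SE, adjusted p = 0.078 and 0.0794, edgeR), from 9 and 7 MN tags. The count fit called neither, and the calls were lost without 5 and 6 of the 12 libraries.

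Of the 13 exons that were lower in MN CLIP within genes, 10 had at least 50% of their WSC tags in the exon. Over these 13, a median of 89.2% of WSC tags lay in the exon, over the 68 higher ones 9.6%, and over all exons tested 18.9%. The 13 exons hold 11 distinct sets of tags, so the values over the 13 count some tags more than once. The exon share of tags was lower in MN than in WSC CLIP at the exons as a whole, as given above, and its part in these calls was not tested. Magi1, a scaffold at cell junctions, included 168 nt at 0.723 and 0.889. It had 7.96, 7.71, 7.79 and 9.49 CPM in WSC libraries and 1 tag in all MN libraries, in line 6 replicate 2. Its share fell by 4.30 ± 0.74 (log2, SE, adjusted p = 1.5e-06, edgeR), and overlapping versions of this exon share its tags and account for 3 of the 13 calls.

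Anks1b, a scaffold of postsynaptic densities, included 180 nt at 0.658 and 0.650, with 10.3, 7.71, 8.85 and 7.23 CPM in WSC libraries and 2 tags in all MN libraries. Its share fell by 3.33 ± 0.64 (log2, SE, adjusted p = 2.81e-05, edgeR). Gsk3b, a kinase of Wnt and tau signalling, included its neuronal exon of 39 nt at 0.256 and 0.236. It had 7.07, 7.22, 4.78 and 4.97 CPM in WSC libraries and none in MN libraries. Against a floor of 3 tags over all MN libraries it was at least 4.12-fold lower in MN CLIP in pooled CPM. On that scale the median over all regions was also below 0 (-0.79 log2). The share of the gene's tags, a different measure, was called lower (adjusted p = 0.00912 within genes, edgeR, and 0.153 without line 17 replicate 4). Map4k4, a serine and threonine kinase, and Eps15, an adaptor of clathrin pits, were lower with 3 and 4 MN tags (adjusted p = 0.0235 and 0.0272, edgeR), and both calls were lost without line 17 replicate 4 (0.505 and 0.407).

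Other exons were lower in tag counts on library totals and were not called in the broader test within genes. At Wnk1, MN libraries had 10.7 to 32.9 CPM with a median of 22.4, all 8 below all WSC libraries, and the count fit on totals gave -1.16 ± 0.27 (log2, SE, adjusted p = 0.00111, edgeR). The exon region held 6.52% of the gene's tags in MN CLIP and 9.21% in WSC CLIP, which the broader test did not call (adjusted p = 0.246, edgeR) and the planned test within genes did (adjusted p = 0.0425, as given above). Another of these exons in Wnk1 (chr6:119894719-119894802) was higher in MN CLIP in the broader test within genes (2.41 ± 0.83, log2 with SE, adjusted p = 0.0803, edgeR). Ociad1 (-1.48 ± 0.33, log2 with SE, adjusted p = 7.37e-04, edgeR) was called lower in counts and was not called within genes (adjusted p = 0.788). The region held 4.53% of the gene's tags in MN and 5.04% in WSC CLIP. Of the exons named for their junction reads, Slc24a2 was higher in MN CLIP within genes (2.44 ± 0.55, log2 with SE, adjusted p = 6.54e-04, edgeR) from 13 MN tags in 4 libraries, while Dlg1, Cltb, Pcbp2, Mbp and Enpp2 had 0 to 3 MN tags and were not called.

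**Figure D5:**
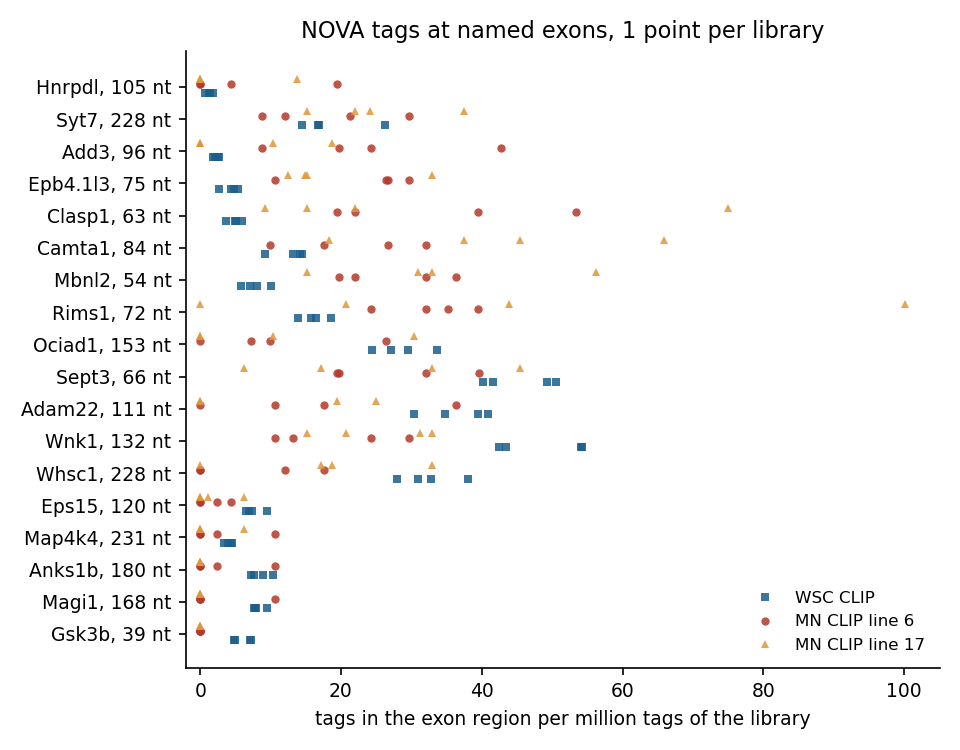
NOVA tags in the region of named exons (x axis, CPM, tags per 1000000 tags of the library), 1 point per library, with WSC libraries as blue squares, line #6 as red circles and line #17 as orange triangles, ordered by the difference within genes from highest to lowest (y axis, gene and exon length). All MN points lie above the WSC points for Mbnl2, Clasp1 and the 75 nt exon of Epb4.1l3, and Gsk3b has no MN tag. In an MN library 1 tag is worth 1.15 to 15.2 CPM.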

How the data were processed

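RNA-seq of WSC from 2 mice (poly(A) RNA, reads trimmed before mapping with OLego to mm9) was deposited by the authors as read counts per cassette exon event and per gene, and as RPKM values per gene, from the Quantas scripts. CLIP tags of 12 libraries were mapped by the authors with Novoalign to mm9, collapsed by read barcode and deposited as tag positions, 1 tag per row. The submitters' processing notes list mm10 beside mm9 for line 6 replicate 2, whose tags at the exons in CPM lay within the range of the other MN libraries, while its share of covered-region tags at the exons was 32.7%, against 23.7 to 29.8% in those.

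Inclusion was computed from junction counts as defined in the report, and Fisher's exact test used inclusion against skipping reads of the male and female libraries with Benjamini-Hochberg adjustment over 9396 events. Exons were placed on the mm9 sequence with GENCODE vM1. Tags were counted on the transcript strand in the exon and 300 nt of intron. MN (8 libraries, both lines as 1 group) and WSC (4 libraries) were compared with edgeR 4.0.16 (R 4.3.3), quasi-likelihood test, adjusted p up to 0.1. The planned fits used filterByExpr, with TMM for tag counts and, within genes, the tags elsewhere in the gene as an offset (at least 20 in each group). After the calls of 4 filters had been seen, 2 fits without a filter were added, one on library totals and one with a term for each library and the tags elsewhere in the gene as a second column. The code was tested on simulated counts, in which the planned fits without a filter, and the filtered TMM fit when most regions changed, gave false calls. DESeq2 1.42.0, pooled Fisher tests, other flanks, each line alone, a replicate block and leaving out each library were alternatives. The p-values measure the spread between these libraries, which may in part be technical. Intervals and the floor of 3 tags cover counting error only.

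The exons and gene lists were chosen with earlier results of these data known. Named exons were the 3 with the most junction reads in each list, the 6 called ones with the largest gap between libraries, the 4 with the most WSC tags, the 5 with the smallest adjusted p in each direction and test, and those next to the inclusion bounds. Mbnl1 was chosen after its values were seen. Some exons that this rule names are not reported here. Nova1 and Rbfox3 were not analysed here, and no sequence from chromosome 18 was printed.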

Additional observations from a re-analysis of the deposited data

Results flagged for a closer look

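Of 64 sets of 4 libraries at named exons with at least 10 tags, 4 held a library far from the other 3 of its group, and chance alone marks about 1 in 20 sets. At the exon of Hnrpdl, line 17 replicate 4 had 13.8 CPM and the other 3 libraries of that line had 0. At the 75 nt exon of Epb4.1l3, line 6 replicate 2 had 10.7 CPM against 26.4 to 29.7 in the others, and line 17 replicate 3 had 32.9 against 12.5 to 15.2. These were 1 and 3 tags, and both values stayed above every WSC library. At the exon of Magi1, WSC replicate 4 had 9.49 CPM against 7.71 to 7.96.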

How the results depend on the processing

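The number of exons kept within 1.5 times of 1318 under every criterion tried (906 with inclusion from 0.2 to 0.8, and 1335 to 1354 with 1 library left out). On junction reads alone 122 of all covered exons and 50 of these exons differed between the libraries, and 249 of all covered exons did at an adjusted p up to 0.05. The share with NOVA tags, 35.6%, was 39.0% with a tag required in each WSC library, 26.1% with 150 nt and 44.2% with 500 nt of intron. The planned comparison of tag counts called 3 exons. It called 26 with line 6 alone, 35 with line 17 alone, 1 and 15 with 150 and 500 nt, 39 with the MN libraries of the WSC flow cell (replicates 3 and 4 of both lines), 6 on total tags, 150 and 91 with at least 15 and 30 tags, 214 without a filter (7 higher and 207 lower, with a median of -0.98 log2 over all regions) and 0 to 13 without 1 library. The planned test within genes called 5, and 20, 22, 2, 10 and 28 under the first 5 of these settings, 2 with 1 tag per 5′ position, 87, 73 and 82 with the 15-tag, 30-tag and no filter, 63 by pooled Fisher tests and 0 to 8 without 1 library. The broader test within genes called 81, with line 6 alone 23, with line 17 alone 28, with the shared flow cell 51, and 42 (without line 17 replicate 4) to 86 without 1 library. The broader count test called 95, and 33, 40 and 60 in the same order, and 66 to 105 without 1 library. Of the 81 and 95 exons, 24 and 37 were called whichever library was left out. The cause of these changes was not tested, except that filters and lines change how many regions are tested. Where the planned tests called 0 exons without 1 library, the filter had left 0 or 1 of the exons to test.

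With the replicate number as a replicate block and the lines as groups of their own, both changed together, the planned tests called 3 and 3 exons and the broader tests 41 and 41, and what the block alone does was not tested. Correlations of libraries with the same number lay between -0.08 and 0.14, 3 of 12 were over 0.1 (all between line 6 and line 17, 3 of their 4 pairs, and no pair of an MN and a WSC library) and 7 of 12 libraries correlated best with their own number, so the numbers were not taken to pair libraries. Depth limits the MN side: 12 of the 68 higher and 10 of the 13 lower exons had fewer than 5 MN tags.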

Other observations

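The position of the exons in the reading frame was also recorded. Of the 991 that equal an annotated coding segment, 43.9% began with the first base of a codon (frame 0 in the annotation), against 54.7% of the rarely skipped frame-preserving exons that do. Frame 1 was found for 18.8% and 14.8%, and frame 2 for 37.3% and 30.5%. This position was not used to choose the exons, and no test over exons was made.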
